A study of Homo sapiens with 4 samples.

Results

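The genes described here encode the machinery of nuclear DNA replication in SKOV3 cells, a long-established line of human ovarian cancer, and were compared between cells on a tissue culture plate (TCP) and tumor spheroids on polymer X. They were chosen by function, with earlier results of these data known. The 43 gene symbols cover origin recognition, helicase loading, the MCM2-7 helicase, helicase activation, primase and the replicative polymerases. They also cover the sliding clamp and its loader, Okazaki fragment maturation and single-strand DNA binding. All 43 were found among the 19475 gene symbols of the RNA-seq table. A symbol with several RefSeq transcripts was represented by the one whose FPKM, averaged over all libraries, was highest.

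The RNA-seq data comprised 4 libraries of mRNA. In the sample labels, 2 libraries came from SKOV3 cells on TCP at day 0 and 2 from spheroids on polymer X at day 8. Polymer X is a thin polymer film that coats the plate, and in the study's methods the spheroids grew with serum replacement and were dissociated every 4 days. The groups differ in substrate and in time in culture at once. It is uncertain which medium the TCP cells were in, since the labels give 1 protocol with serum replacement on polymer-coated plates for all 4 libraries, whereas the study's methods maintained SKOV3 in fetal bovine serum. No drug, knockdown or other treatment is named for either group. A cell line is 1 tumor's descendant adapted to culture, so the libraries show that line and no other. Nothing in the labels says that replicates were separate cultures, so the p-values below measure only the spread between these samples, which may be technical. Expression was given as FPKM, the sequenced tags of a transcript per kilobase of its length, scaled to the number of tags in the library. The steps between low FPKM values put the tags at 38405000 and 44915000 in TCP replicates 1 and 2, and at 40027000 and 40685000 in polymer X replicates 1 and 2. The fewest tags of any of the 43 genes in a library were the 88 of POLE2 in polymer X replicate 2.

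As background, replication is prepared in the G1 phase, when the origin recognition complex, with CDC6 and CDT1, loads the ring-shaped MCM2-7 helicase onto DNA as an inactive complex, a step called licensing. In S phase the kinase CDC7-DBF4 and cyclin-dependent kinases recruit CDC45 and GINS, which turn the helicase on, and polymerases, clamp and loader then follow the moving fork. Many of these genes are known as targets of the E2F transcription factors and are transcribed mainly in cycling cells, and MCM2 and PCNA are used as markers of proliferating cells in tumor tissue.

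Most of the replication genes were lower on polymer X. Of the 43 genes, 31 were called lower, that is, with an adjusted p under 0.05 (limma with Benjamini-Hochberg adjustment over 11964 tested genes) and a log2 fold change of -1 or less, against 9.45% of all tested genes. None of the 43 was called higher with limma, against 10.7% of all tested genes, and 0 were higher at an unadjusted p under 0.05. By the adjusted p alone, without a minimum change, 42 of the 43 were lower, against 43.6% of all tested genes, and 0 were higher in limma (0 also unadjusted), against 37.4% of all tested genes. In the same 42 genes both polymer X libraries lay under both TCP libraries, which held for 48.4% of all tested genes. ORC4 was the exception in both counts. Across the 43 genes the log2 fold change had a median of -1.43, beside -0.06 over all tested genes. Fold changes are those of log2(FPKM + 1), polymer X minus TCP, and this scale makes changes at low FPKM look smaller than they are. In FPKM itself, the median gene of the 43 was 3.01 times as high on TCP as on polymer X, beside 1.05 for all tested genes. These are bulk samples, in which fewer cycling cells and less of each RNA per cell cannot be told apart.

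**Figure D1:**
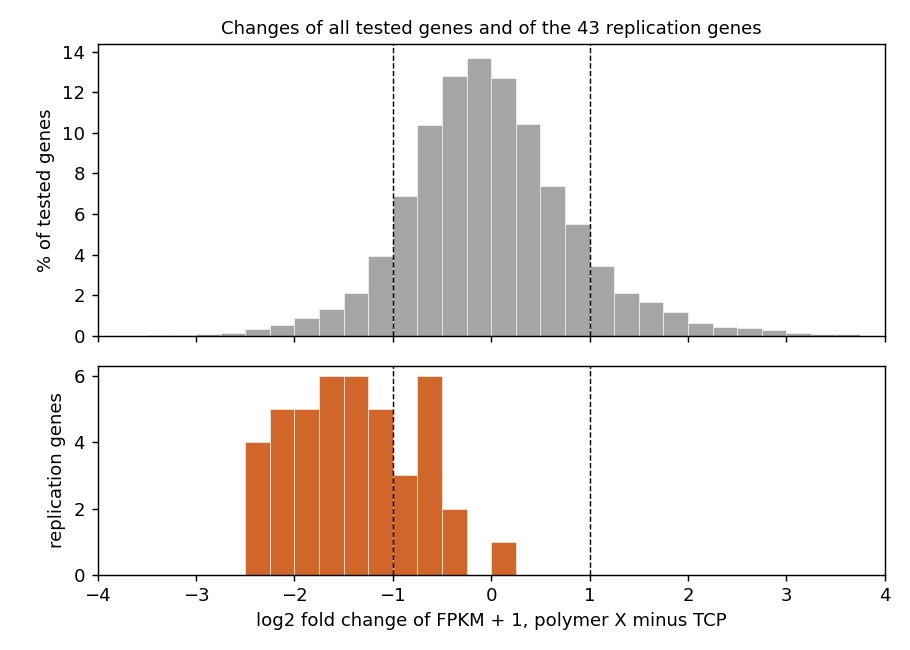
Distribution of log2 fold changes of FPKM + 1 between polymer X and TCP, in bins of 0.25, as a percentage of all 11964 tested genes (top) and as a number of replication genes (bottom), with dashed lines at -1 and 1. The tested genes centre near 0, whereas 42 of the 43 replication genes lie under 0, and the axis leaves out 29 tested genes, none of them replication genes, with changes beyond 4 in either direction.

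The summed FPKM of the 43 genes was 1126 and 1106 in TCP replicates 1 and 2 and 419.7 and 383 in polymer X replicates 1 and 2. The sum was thus 2.78-fold higher on TCP, while the sum over all tested genes was 1.12-fold higher. Levels spanned from DBF4 to PCNA in both groups, and they covered a wider range on polymer X. The highest mean FPKM was 24.3 times the lowest on TCP and 34.2 times on polymer X. Across the 43 genes, which are not independent replicates, the rank correlation of the TCP and polymer X means was 0.80. The replicates on polymer X were not level with each other. FPKM was lower in polymer X replicate 2 than in replicate 1 for 37 of the 43 genes, against 63.8% of all tested genes, with a median log2 difference of -0.15. On TCP, replicate 2 was the lower in 25 of the 43 genes, against 48.8% of all tested genes, with a median log2 difference of -0.01. The count of genes called lower was 32 without polymer X replicate 1 and 30 without polymer X replicate 2.

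**Figure D2:**
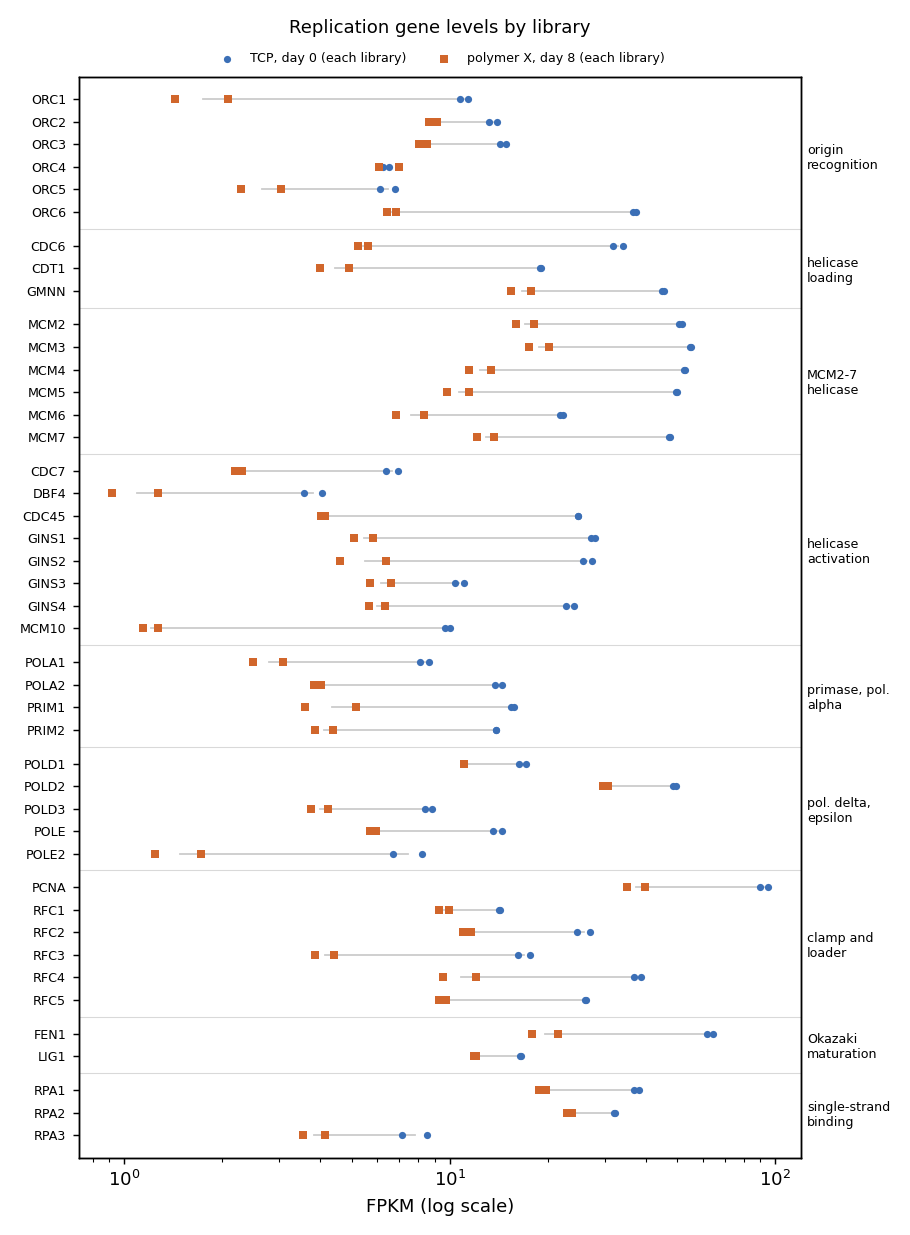
FPKM of the 43 replication genes in each library on a log axis, ordered by replication step, with TCP libraries as blue circles, polymer X libraries as orange squares and a grey line between the group means. The orange squares lie left of the blue circles in 42 rows, and the groups overlap only at ORC4.

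A RefSeq table of promoter windows, from 250 bases before to 50 bases after each start site on GRCh38.p14, was searched on both strands for words known from cell cycle genes. It held 37 of the 43 genes. The table had no entry for MCM4, MCM5, GINS4, POLD3, RPA2 or RPA3. The words searched were the E2F consensus forms TTTCCCGC, TTTCGCGC, TTTGCCGC and TTTGGCGC, the NF-Y word CCAAT and the cell cycle homology region (CHR) words TTTGAA and TTCGAA. An E2F word stood in a window of 19 of the 37 genes, or 51.4%, against 6.77% of the 9551 tested genes with an entry and 3.99% of all 27305 symbols in the table. Counted by window, it stood in 40.4% of the 47 windows of these genes and in 3.31% of all 35116 windows. It was found in 16 of the 28 genes called lower and in 3 of the 9 not called, which are ORC3, GINS3 and LIG1. The difference between genes called lower and not called was not tested. CCAAT was found in 56.8% of the 37 genes and in 43.2% of the tested genes. A CHR word was found in 5.41% and 15.1%, and the 2 replication genes with one were MCM6 and DBF4. A match of letters is a description of the window, not a shown binding site, and a window without a match says only that these letters are not in it.

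MCM6 carried the most E2F words. Its window held the same pair of overlapping words at 2 places, starting at positions -152 and -90 from the start site. The stretch below lies at chr2:135876514-135876603 on the minus strand of GRCh38.p14, just upstream of the gene and outside its transcript, with E2F words alone in capitals. That of ORC6, at chr16:46689579-46689642 on the plus strand, is set beside it as an example without an E2F word. Of the 6 genes with the lowest log2 fold changes, CDC45, ORC6, MCM10 and ORC1 had no E2F word in a window, and CDC6 and GINS1 had one. The CCAAT matches inside the stretches, at position -100 in MCM6 and -68 in ORC6, are in lower case.
MCM6: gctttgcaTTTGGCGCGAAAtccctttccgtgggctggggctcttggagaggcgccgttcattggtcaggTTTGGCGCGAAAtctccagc
ORC6: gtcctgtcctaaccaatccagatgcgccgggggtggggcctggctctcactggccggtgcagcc

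The 30 bases around an E2F word near the start site are shown for 9 of the other genes called lower. Words also lay further from the start, at -187 in MCM7, -174 in MCM3 and -137 in POLA1. The shown words are given with the position of the first matched base counted from the start. They come from CDC6 (chr17:40287875-40287904, plus strand, position 8), CDT1 (chr16:88803743-88803772, plus, -35), MCM2 (chr3:127598404-127598433, plus, 3), MCM3 (chr6:52284728-52284757, minus, -4) and GINS1 (chr20:25407667-25407696, plus, 6). The others come from GINS2 (chr16:85688967-85688996, minus, -31), POLA2 (chr11:65261898-65261927, plus, -53), POLE2 (chr14:49688201-49688230, minus, -5) and RFC3 (chr13:33818083-33818112, plus, -55). The E2F words are in capitals, and in MCM2 2 of them overlap on opposite strands.
CDC6: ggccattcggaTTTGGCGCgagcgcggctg
CDT1: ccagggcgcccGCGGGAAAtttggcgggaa
MCM2: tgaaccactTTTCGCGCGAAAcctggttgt
MCM3: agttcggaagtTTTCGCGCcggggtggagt
GINS1: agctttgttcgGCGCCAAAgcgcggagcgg
GINS2: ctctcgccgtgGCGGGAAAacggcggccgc
POLA2: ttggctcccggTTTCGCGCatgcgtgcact
POLE2: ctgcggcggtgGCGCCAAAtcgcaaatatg
RFC3: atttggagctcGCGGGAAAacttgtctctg

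The same words were present in 3 genes that were not called, and their 30 bases are shown to set against those above. They come from ORC3 (chr6:87590112-87590141, plus strand, position -12), GINS3 (chr16:58392455-58392484, plus, -5) and LIG1 (chr19:48170440-48170469, minus, -114).
ORC3: cgcgagggcgcGCGGGAAAtcccgagtgca
GINS3: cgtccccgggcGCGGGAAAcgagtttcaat
LIG1: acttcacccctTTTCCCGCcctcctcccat

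The origin recognition complex, which marks origins on DNA, had the most uneven changes. Of its 6 genes, 3 were called lower, and the median log2 fold change of the 6 was -0.89. Here and for each step below, the share called lower over all tested genes was 9.45%. ORC1, the ATPase subunit whose protein is known to be removed after G1, had an FPKM of 10.8 and 11.4 on TCP and 2.08 and 1.43 on polymer X. ORC6, the small subunit that joins the complex most loosely, had 36.5 and 37.3 on TCP and 6.43 and 6.83 on polymer X. In both genes the lowest TCP library stood far above the highest polymer X library. The log2 fold change of ORC1 (NM_004153, chr1:52838501-52870143 in hg19) was -2.14, with a standard error of 0.11 and an adjusted p of 1.1e-07 in limma. That of ORC6 (NM_014321, chr16:46723558-46732306) was -2.31, with a standard error of 0.06 and an adjusted p of 2.8e-09 in limma.

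The core subunits ORC2 to ORC5 moved less. ORC4, an ATPase fold subunit of the core, had an FPKM of 6.51 and 6.23 on TCP and 6.99 and 6.05 on polymer X. One polymer X library lay above both TCP libraries and the other under both. Its log2 fold change was 0.03, with a 95% confidence interval of -0.15 to 0.20 and an adjusted p of 0.77 in limma, so a fall of the size of ORC1 or ORC6 lies outside the interval. Its sign was negative without TCP replicate 2 and without polymer X replicate 1. ORC4 overlaps ACVR2A on the opposite strand by 431 bases of its span. ORC2 had an FPKM of 13.96 and 13.2 on TCP and 9.16 and 8.65 on polymer X, and ORC3 had 14.9 and 14.3 and 8.50 and 8.06. Both were lower on polymer X without overlap, but their log2 fold changes of -0.56 and -0.75 did not reach the minimum of -1. ORC5, another core ATPase, had an FPKM of 6.81 and 6.12 on TCP and 3.02 and 2.29 on polymer X. The groups were apart, and the log2 fold change of -1.04 passed the minimum narrowly. It was -0.97 without TCP replicate 1 and -0.89 without polymer X replicate 2, so the call of ORC5 was lost without either library. On TCP the order of mean FPKM ran from ORC6 through ORC3, ORC2, ORC1 and ORC5 to ORC4. On polymer X ORC2 was the highest and ORC1 the lowest.

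CDC6 and CDT1, which bring the helicase to the origin, and GMNN, whose product inhibits CDT1, were all called lower. CDC6, the ATPase that completes the loader, had an FPKM of 34.1 and 31.8 on TCP and 5.62 and 5.22 on polymer X. CDT1, which escorts MCM2-7 to the origin, had 19.1 and 19.0 on TCP and 4.90 and 3.997 on polymer X. GMNN encodes geminin, the inhibitor that binds CDT1 after licensing, and had 45.0 and 45.6 on TCP and 15.5 and 17.8 on polymer X. In each of these genes both TCP libraries were high and both polymer X libraries low. CDC6 (NM_001254, chr17:38444146-38459413 in hg19) had the lowest log2 fold change of the 43 genes, -2.40, with a standard error of 0.07 and an adjusted p of 3.8e-09 in limma. Its mean was 6.08-fold higher on TCP. That place depended on the settings. MCM10 was lower than CDC6 with a pseudocount of 0.1 in place of 1, under quantile normalization and with summed transcripts. ORC1 was lower than CDC6 with that pseudocount and with summed transcripts, and CDC45 with summed transcripts and without polymer X replicate 2. CDT1 had a log2 fold change of -1.88 and GMNN one of -1.40. Within a library, the log2 ratio of CDT1 to GMNN was -1.20 and -1.22 on TCP and -1.48 and -1.91 on polymer X. The libraries of the groups did not overlap, and the difference of -0.49 stood beside a replicate SD of 0.30. For each ratio, the replicate SD is the square root of the TCP variance plus the polymer X variance. It is thus larger than the SD within either group. The difference was -0.27 without polymer X replicate 2, which is smaller than that replicate SD, and -0.70 without polymer X replicate 1. With 2 libraries per group, 0.33 is the smallest two-sided p that exchanging the group labels can give, so no ratio could reach 0.05 that way, and no other test was run on the ratios.

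The 6 genes of the MCM2-7 ring, whose proteins assemble in equal numbers, were all called lower, with a median log2 fold change of -1.67. Their summed FPKM was 277 and 279 on TCP and 85.2 and 73.8 on polymer X. MCM5, which with MCM2 forms the gate of the ring, had an FPKM of 49.9 and 49.6 on TCP and 11.5 and 9.81 on polymer X. MCM4, a subunit whose tail is phosphorylated by CDC7, had 52.6 and 53.0 and 13.4 and 11.5. These genes had the lowest log2 fold changes of the ring, -2.13 and -2.00, each with a standard error of 0.07 and with adjusted p of 1.2e-08 and 1.5e-08 in limma. MCM6 had the lowest level of the ring, with an FPKM of 21.8 and 22.2 on TCP and 8.34 and 6.83 on polymer X. MCM3 had the highest, with 54.6 and 55.1 on TCP and 20.2 and 17.5 on polymer X. Both genes were lower in each polymer X library, and they had the same places in the ring in both groups. MCM2, MCM6 and MCM7 had log2 fold changes of -1.54, -1.43 and -1.80, and MCM3 was 2.91-fold higher on TCP. The highest mean of the ring was 2.49 times the lowest in either group. The fold in FPKM ran from 2.90 for MCM6 to 4.67 for MCM5. MCM7 overlaps AP4M1 on the opposite strand by 434 bases of its span, and since the counting did not use strand, tags there cannot be assigned to either gene. Relative to the core origin recognition genes ORC2 to ORC5, the mean log2 level of MCM2 to MCM7 was higher by 2.06 and 2.15 on TCP and by 0.98 and 0.93 on polymer X. The groups were apart, by more than the replicate SD of 0.07.

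**Figure D3:**
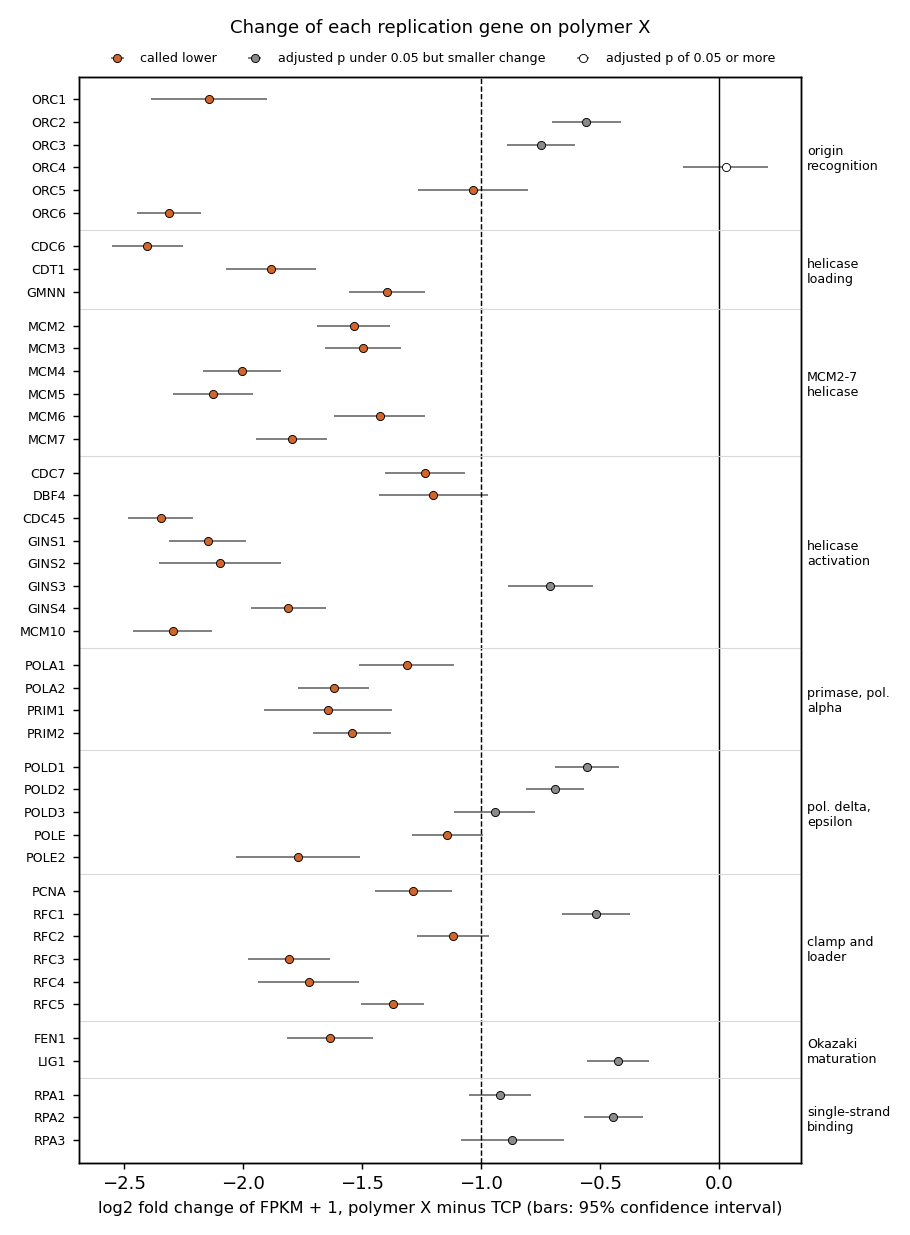
Log2 fold change of FPKM + 1 between polymer X and TCP for each of the 43 replication genes, by step, with bars for the 95% confidence interval and a dashed line at -1. The 31 orange points passed both criteria, the 11 grey points had an adjusted p under 0.05 in limma but a smaller change, and the white point is ORC4, with a log2 fold change of 0.03.

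Helicase activation held several of the largest falls, with 7 of 8 genes called lower, against 9.45% of all tested genes. Its median log2 fold change was -1.95. CDC45, a core part of the active helicase, had an FPKM of 24.8 and 24.8 on TCP and 4.02 and 4.14 on polymer X. MCM10, needed to start the assembled helicase, had 10.0 and 9.66 on TCP and 1.27 and 1.15 on polymer X. Replicates of both genes lay close together and the groups far apart. The log2 fold change of CDC45 (NM_003504, chr22:19467349-19508135 in hg19) was -2.35, with a standard error of 0.06 and an adjusted p of 2.8e-09 in limma. For MCM10 (NM_182751, chr10:13203554-13253104) it was -2.30, with an adjusted p of 7.8e-09 in limma. In FPKM the mean of MCM10 was 8.14-fold higher on TCP, the largest such ratio of the 43 genes.

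GINS is a ring of 4 subunits that binds MCM2-7 with CDC45. GINS1 had an FPKM of 27.1 and 28.0 on TCP and 5.83 and 5.08 on polymer X, and GINS2 had 27.3 and 25.6 and 6.37 and 4.59. GINS4 had 24.2 and 22.8 on TCP and 6.33 and 5.66 on polymer X. These 3 genes were called lower, with log2 fold changes of -2.15, -2.10 and -1.81. GINS3 stood apart from them, with an FPKM of 10.4 and 11.1 on TCP and 6.63 and 5.71 on polymer X. Its groups did not overlap, but its log2 fold change of -0.71 did not reach the minimum. As a result, the subunits differed less on polymer X. Their highest mean FPKM was 2.57 times the lowest on TCP, where GINS3 was the lowest, and 1.13 times on polymer X, where GINS3 was the highest.

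CDC7, the kinase that triggers origin firing, and DBF4, the subunit that activates it, were the least abundant genes of this step on TCP. CDC7 had an FPKM of 6.37 and 6.92 on TCP and 2.19 and 2.29 on polymer X. DBF4 had 4.04 and 3.57 on TCP and 1.27 and 0.915 on polymer X, so that 1 of its libraries lay under the FPKM minimum of 1. Both were called lower, with log2 fold changes of -1.24 and -1.20. The log2 ratio of CDC7 to DBF4 was 0.55 and 0.79 on TCP and 0.49 and 0.78 on polymer X, and the groups overlapped. The difference of -0.03, with a replicate SD of 0.27, changed sign with the settings. It was 0.20 with a pseudocount of 0.1, 0.16 with summed transcripts and 0.18 under quantile normalization. It stayed negative with the longest transcript (-0.01) and with scaling to a common median (-0.03). Leaving out single libraries gave -0.18 to 0.11. DBF4 overlaps SLC25A40 on the opposite strand by 149 bases of its span.

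Polymerase alpha and primase make the RNA-DNA primers, and all 4 of their genes were called lower, within a narrow range. PRIM1, the catalytic primase subunit, had an FPKM of 15.8 and 15.4 on TCP and 5.14 and 3.58 on polymer X. POLA1, the catalytic polymerase subunit, had 8.10 and 8.65 on TCP and 3.07 and 2.49 on polymer X. The groups were far apart in both, and the spread was widest between the polymer X libraries. The log2 fold change of PRIM1 was -1.64, with a standard error of 0.12 and an adjusted p of 1.2e-06 in limma. POLA1 had -1.31, PRIM2, the large primase subunit, -1.54, and POLA2, the accessory subunit, -1.62. The 4 genes had ratios of TCP to polymer X from 3.01 to 3.60 in FPKM. PRIM2 had the widest range of log2 fold changes between transcripts of 1 gene among the 43 genes, from -1.70 to -1.54. Whether tags from a similar sequence elsewhere in the genome were counted in PRIM2 was not checked, so its levels, its fold change and this range are uncertain.

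Of the polymerases that extend both strands, both epsilon genes among the 43 were called lower and the 3 delta genes were not, a difference between the polymerases that was not tested. In the list of accessory subunits, the epsilon subunit POLE3 was called lower, at -1.57, and POLE4 was not called, at -0.88. The delta subunit POLD4 was higher by the adjusted p in limma but not called, at 0.59. POLE, the catalytic subunit of polymerase epsilon on the leading strand, had an FPKM of 13.6 and 14.5 on TCP and 5.94 and 5.71 on polymer X. POLE2, its accessory subunit, had 8.22 and 6.70 on TCP and 1.72 and 1.24 on polymer X. Both were lower without overlap and were called, with log2 fold changes of -1.14 for POLE and -1.77 for POLE2. POLD1, the catalytic subunit of polymerase delta on the lagging strand, had an FPKM of 16.3 and 17.2 on TCP and 11.1 and 11.1 on polymer X. POLD2 had 49.8 and 48.6 on TCP and 30.6 and 29.6 on polymer X, and POLD3 had 8.81 and 8.39 and 4.24 and 3.75. The 3 delta subunits were also lower in both polymer X libraries, with smaller differences. Their log2 fold changes of -0.56, -0.69 and -0.94 did not reach the minimum, with adjusted p of 1.9e-05, 2.1e-06 and 2.4e-06 in limma. Under quantile normalization that of POLD2 was -0.40. POLD3 was close to the minimum and was called with a pseudocount of 0.1 (-1.09), under quantile normalization (-1.01) and without polymer X replicate 1 (-1.02). The log2 ratio of POLE to POLD1 within a library was -0.25 and -0.23 on TCP and -0.80 and -0.85 on polymer X. That difference, -0.59, was larger than the replicate SD of 0.03. Thus the catalytic subunits were close in level on TCP and further apart on polymer X.

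PCNA, the sliding clamp that tethers the polymerases, was the most abundant of the 43 genes in each library. Its FPKM was 95.2 and 90.0 on TCP and 39.9 and 35.0 on polymer X. Both TCP libraries stood more than 2 times as high as either polymer X library. The log2 fold change of PCNA (NM_182649, chr20:5095599-5100647 in hg19) was -1.29, with a standard error of 0.07 and an adjusted p of 2.1e-07 in limma. Under quantile normalization it was -0.97, and PCNA was then not called.

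Replication factor C opens the clamp and loads it onto DNA, with a large subunit, RFC1, and the small subunits RFC2 to RFC5. RFC3 had an FPKM of 17.6 and 16.3 on TCP and 4.41 and 3.87 on polymer X, and RFC4 had 38.8 and 36.8 and 12.1 and 9.54. RFC5 had 26.3 and 26.1 on TCP and 9.77 and 9.26 on polymer X, and RFC2 had 27.0 and 24.5 and 11.7 and 11.0. All 4 small subunits were called lower, with log2 fold changes of -1.81 for RFC3, -1.72 for RFC4, -1.37 for RFC5 and -1.12 for RFC2. That of RFC2 was -0.96 under quantile normalization, and its call was then lost. RFC1 had an FPKM of 14.2 and 14.3 on TCP and 9.28 and 9.97 on polymer X. It was lower without overlap, but its log2 fold change of -0.52 (adjusted p of 4.4e-05 in limma) did not reach the minimum. RFC1 was the least abundant subunit on TCP, and on polymer X RFC3 was. The log2 ratio of PCNA to the mean of RFC2 to RFC5 was 1.81 and 1.81 on TCP and 2.05 and 2.01 on polymer X. The clamp was thus higher relative to its small loader subunits on polymer X, by 0.22 with a replicate SD of 0.02. The size depended on the settings by more than that SD, with 0.41 under quantile normalization, 0.31 with a pseudocount of 0.1 and 0.28 with summed transcripts. The span of RFC4 overlaps that of EIF4A2, a far more abundant gene on the opposite strand, by 4 bases.

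Of the enzymes that finish Okazaki fragments, FEN1 was called lower and LIG1 was not. FEN1, the nuclease that removes the displaced flap, had an FPKM of 64.3 and 61.8 on TCP and 21.5 and 17.9 on polymer X. LIG1, the ligase that seals the nick, had 16.4 and 16.6 on TCP and 11.9 and 12.1 on polymer X. Both were lower in each polymer X library, FEN1 by 3.20-fold and LIG1 by 1.37-fold in the means. Their log2 fold changes were -1.64 with a standard error of 0.08 and -0.43 with a standard error of 0.06, and the adjusted p were 1e-07 and 9e-05 in limma.

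Replication protein A coats single-stranded DNA at the fork and in repair, and 0 of its 3 genes were called lower with limma, though all 3 were lower by the adjusted p alone. RPA1, the large DNA-binding subunit, had an FPKM of 38.2 and 36.8 on TCP and 19.8 and 18.8 on polymer X. RPA2, the subunit that checkpoint kinases phosphorylate, had 32.3 and 32.1 on TCP and 23.7 and 23.0 on polymer X. RPA3, the smallest subunit, had 8.55 and 7.16 on TCP and 4.14 and 3.54 on polymer X. None of the 3 overlapped between groups, and their log2 fold changes were -0.92, -0.45 and -0.87. Under quantile normalization that of RPA2 was -0.21. With a pseudocount of 0.1 that of RPA3 was -1.01, and it was then called lower. The span of RPA3 overlaps UMAD1 on the opposite strand by 77972 of its 82045 bases, whose FPKM was 2.03 and 2.24 on TCP and 2.74 and 2.56 on polymer X, so its value is uncertain. The log2 ratio of RPA1 to RPA3 was 2.04 and 2.21 on TCP and 2.02 and 2.13 on polymer X, with overlap between the groups. The difference of -0.05 turned to 0.26 under quantile normalization, which is larger than the replicate SD of 0.15.

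**Figure D4:**
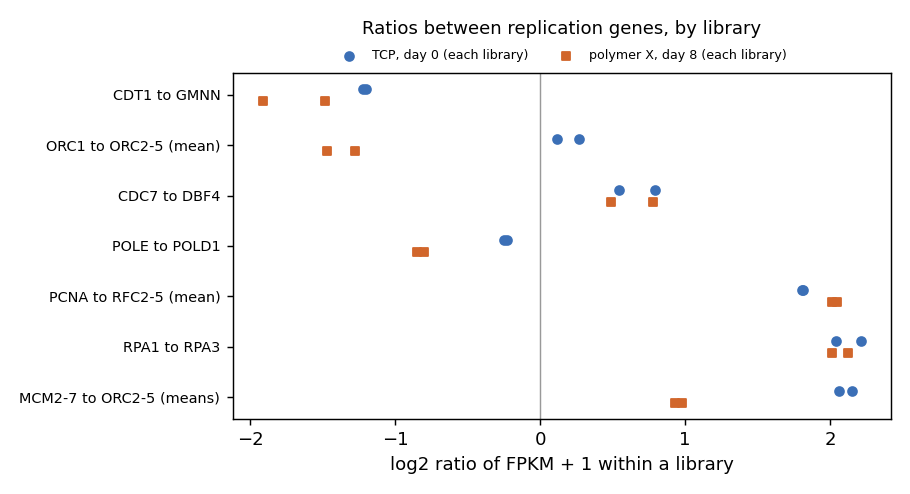
Log2 ratios between replication genes within each library, on a log2 axis, with TCP libraries as blue circles and polymer X libraries as orange squares. The groups are apart for 5 ratios, most for ORC1 against ORC2 to ORC5, and overlap for CDC7 to DBF4 and for RPA1 to RPA3.

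Of the 7 ratios, 5 differed between the groups by more than the replicate SD, with CDT1 to GMNN under it without polymer X replicate 2. Quantile normalization moved 4 of the 7 differences by more than the replicate SD, to -0.65 for POLE to POLD1, 0.41 for PCNA to RFC2 to RFC5, 0.26 for RPA1 to RPA3 and -0.96 for MCM2 to MCM7 against ORC2 to ORC5. Its use on the ratios was chosen after seeing the data. The largest difference was that of ORC1 to the mean of ORC2 to ORC5. Its log2 value was 0.11 and 0.27 on TCP and -1.28 and -1.47 on polymer X. ORC1 was thus level with the mean of these core subunits or slightly above it on TCP, where ORC2 and ORC3 were higher than ORC1. On polymer X ORC1 lay under that mean and under each of these subunits. The difference of -1.57 stood beside a replicate SD of 0.17, and it was -1.95 with a pseudocount of 0.1. The transcripts of each gene moved alike. Of the 104 transcripts of the 43 genes, 98 were lower on polymer X, and the 6 that were higher were the 6 transcripts of ORC4. Transcripts of a gene share exons and so share tags.

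Other genes of the pathway, which control licensing or act at the fork, came from separate lists, chosen with earlier results of these data known. Of 79 such genes, 39 were called lower and 0 higher with limma, against 9.45% and 10.7% of all tested genes. By the adjusted p alone 66 were lower and 5 higher, against 43.6% and 37.4% of all tested genes, and the counts were also 66 and 5 without adjustment. Their median log2 fold change was -0.97. Among 15 genes of licensing control, 9 were called lower. The largest falls were those of the S phase cyclin CCNA2 (-2.32), the phosphatase CDC25A (-2.16) and DTL (-2.03), which marks CDT1 for destruction. CCNA2 had an FPKM of 42.7 and 42.1 on TCP and 7.69 and 7.65 on polymer X, with no overlap. Of the cyclin E genes, CCNE2 (-1.11) was called lower. CCNE1 (-0.43) was lower by the adjusted p of 0.00066 in limma but not called, and the difference between these genes was not tested.

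Genes of origin firing and of the replisome's accessory factors were called lower in 10 of 13 cases, with a median log2 fold change of -1.32. Over all tested genes, to be set beside this list and those below, 9.45% were called lower and the median was -0.06. With the settings used here, the lowest value in these lists was that of CLSPN, the claspin adaptor of the fork, at -2.73. It had an FPKM of 18.0 and 19.0 on TCP and 1.96 and 1.90 on polymer X, so its mean was 9.58-fold higher on TCP. WDHD1 and TIMELESS followed with -1.73 and -1.44. Replication-coupled chromatin assembly had 7 of 9 genes called lower and a median of -1.46, led by UHRF1 (-2.08), CHAF1A (-1.66), a subunit of the histone chaperone that PCNA recruits, and the maintenance methyltransferase DNMT1 (-1.60). Flap, RNA primer and topology enzymes had 5 of 10 called lower, with TOP2A at -2.17, EXO1 at -1.70 and RNASEH2A at -1.51. Accessory polymerase subunits and other clamp loaders had 4 of 8, with the PCNA-associated factor PCLAF at -2.31, DSCC1 at -1.63 and POLE3 at -1.57.

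The lists nearest to repair and damage signaling had the medians closest to 0, with shares of genes called lower near the 9.45% of all tested genes. Of 9 replication checkpoint genes, CHEK1 (-1.60) was called lower, or 11.1%, and the median was -0.45. By the adjusted p alone 6 of the 9 were lower and 0 higher in limma (0 also unadjusted), against 43.6% and 37.4% of all tested genes. Of 8 genes for translesion synthesis, the bypass of damaged bases, the ligase gene RAD18 (-1.61) was called lower, or 12.5%, and the median was -0.12. By the adjusted p alone 3 of the 8 were lower and 2 higher, against 43.6% and 37.4% of all tested genes. Mitochondrial DNA replication, which runs outside the nuclear cell cycle, had 2 of 7 genes called lower, MGME1 (-1.41) and TWNK (-1.04), with a median of -0.77. With the values as the authors scaled them, the 5 genes that were higher by the adjusted p in limma, none with a log2 fold change of 1, were POLI (0.92, adjusted p of 4.4e-06), POLD4 (0.59, 3.5e-05), POLG2 (0.46, 0.0015), POLH (0.27, 0.0091) and RNASEH2C (0.16, 0.025). POLD4, the small subunit of polymerase delta, had an FPKM of 7.88 and 7.67 on TCP and 11.6 and 12.9 on polymer X. It was higher in both polymer X libraries, whereas POLD1, POLD2 and POLD3 were lower. POLI, a translesion polymerase, had 2.49 and 2.29 on TCP and 5.11 and 5.74 on polymer X, also without overlap. Differences between the lists were not tested.

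**Figure D5:**
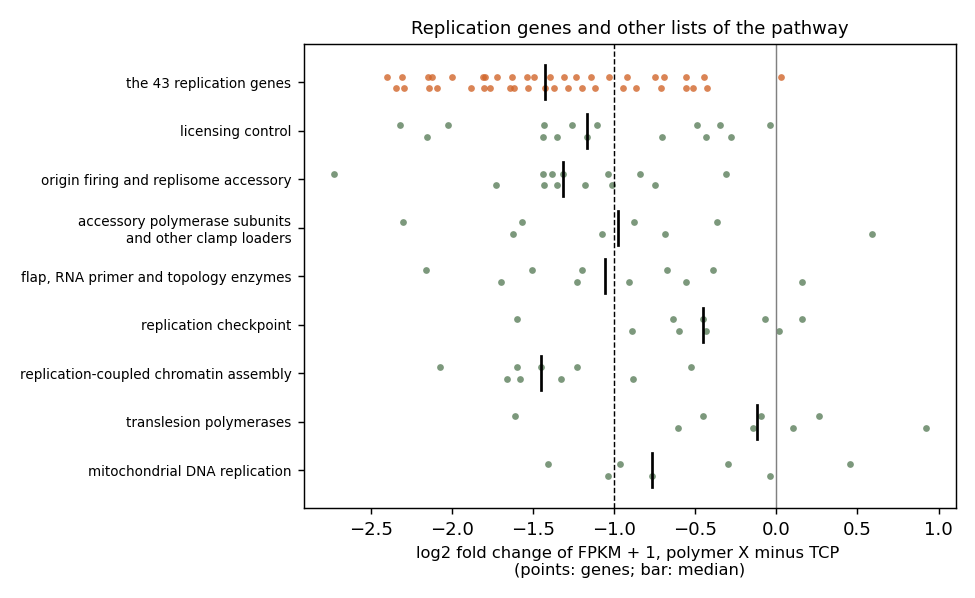
Log2 fold changes of FPKM + 1 between polymer X and TCP for the 43 replication genes (orange) and for 8 other lists of the pathway (green), with 1 point a gene, a black bar at the median and a dashed line at -1. Medians run from -1.46 for chromatin assembly to -0.12 for translesion polymerases.

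Genes that mark stages of the cell cycle were read in the same libraries. Of 14 such genes, 7 were called lower and 3 higher, against 9.45% and 10.7% of all tested genes. MKI67, the proliferation marker, had an FPKM of 42.6 and 45.9 on TCP and 5.97 and 6.91 on polymer X, and its log2 fold change was -2.61. CCNB1, the mitotic cyclin, had 128 and 122 on TCP and 17.6 and 18.6 on polymer X, with -2.72 as its log2 fold change. Both were high on TCP and low on polymer X, as was MYBL2 (-2.61), a factor of late cell cycle genes. The E2F genes E2F1 (-1.61) and E2F4 (-1.02) were called lower, and E2F2 had an FPKM of 1.52 and 1.78 on TCP and 0.651 and 0.450 on polymer X. Of the 3 inhibitors of cyclin-dependent kinases in the list, CDKN1A and CDKN1C were called higher, and CDKN1B (0.65) was higher by the adjusted p in limma but not called. CDKN1A, which encodes p21, had an FPKM of 3.00 and 2.33 on TCP and 12.4 and 12.4 on polymer X, with 1.88 as its log2 fold change. CDKN1C, which encodes p57, had 3.21 and 4.58 on TCP and 20.5 and 20.3 on polymer X, with 2.14 as its log2 fold change. CCNG2 was the other gene called higher, at 1.85. The part of cell cycle stage in the change of the replication genes was not tested.

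The labelled cell line was read against 10 SKOV3 and epithelial markers, with a summed FPKM of 641 and 654 on TCP and 1258 and 1207 on polymer X. ERBB2, which is amplified in SKOV3, was the most abundant of them on polymer X, with an FPKM of 198 and 206 on TCP and 913 and 860.4 on polymer X. KRT8 was the most abundant on TCP, with 262 and 269 there and 146 and 143 on polymer X. KRT18 and PAX8 were also present in every library, whereas KRT19, CDH1, WT1 and MUC16 stayed under an FPKM of 1. Of the 10, 6 were tested and 3 of these called higher, ERBB2 (2.13), PAX8 (1.06) and EPCAM (1.05). EPCAM was 0.168 and 0.104 on TCP and 1.39 and 1.325 on polymer X. It reached the FPKM minimum only on polymer X, so the filter favoured its call as higher. The other 3, KRT7 (-0.76), KRT8 (-0.87) and KRT18 (-0.44), were lower by the adjusted p in limma but not called. Among markers of other cell types, the 4 endothelial genes summed to 0.485 and 0.457 on TCP and 0.832 and 0.599 on polymer X. The 5 immune genes summed to 17.2 and 17.5 on TCP and 43.1 and 45.9 on polymer X, nearly all of it CD68, which tumor cells also express, and CD3E was listed at 0 in each library. The 6 fibroblast genes summed to 0.505 and 0.723 on TCP and 32.8 and 26.6 on polymer X. Of these, LUM was 0.074 and 0.232 on TCP and 24.1 and 19.6 on polymer X. DCN was 0.025 and 0 on TCP and 7.26 and 6.20 on polymer X. LUM and DCN were called higher and made up most of the sum on polymer X. They reached the FPKM minimum only on polymer X, so the filter favoured their calls as higher. PDGFRA, PDGFRB, THY1 and FAP stayed under 1 and were not tested. PDGFRA was 0.103 and 0.084 on TCP and 0.254 and 0.291 on polymer X. FAP was 0.058 and 0.14 on TCP and 0.988 and 0.5 on polymer X. THY1 went the other way, with 0.139 and 0.184 on TCP and 0.049 and 0 on polymer X. PDGFRB overlapped between the groups. CD68 (17.0 and 17.4 on TCP, 42.3 and 44.9 on polymer X) was called higher, at 1.29. The other immune and endothelial genes were under an FPKM of 1 in all 4 libraries and were not tested, but some differed between the groups. PTPRC was 0.005 and 0 on TCP and 0.468 and 0.530 on polymer X. PECAM1 was listed at 0 and 0 on TCP and was 0.573 and 0.458 on polymer X. KDR was 0.476 and 0.438 on TCP and 0.215 and 0.110 on polymer X. The part of the rise of CD68, LUM and DCN in the change of the replication genes was not tested.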

How the data were processed

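The authors deposited FPKM per RefSeq transcript, made with HOMER on hg19 from tags on exons of both strands, 1 column per library. Their processing notes also name STAR 2.4.0 and DESeq, without roles. Tag counts were not used here, and depth came from the steps between low values. FPKM were used as scaled by the authors, as log2(FPKM + 1), with 1 transcript per symbol, that with the highest mean. Genes that reached an FPKM of 1 in 2 or more libraries were tested with limma 3.58.1 (variance trend) in R 4.3.3, polymer X against TCP, with all 4 libraries. Calls needed a Benjamini-Hochberg adjusted p under 0.05 over all tested genes and a log2 fold change of 1 or more in size. Same-numbered libraries were checked for pairing, and since deviations correlated at 0.093 over 11964 genes, no replicate block was used. Tables were made with pandas 2.3.3 and plots with matplotlib 3.10.9. Promoter windows came from a table of NCBI RefSeq on GRCh38.p14. Members and lists were chosen with earlier results of these data known. Every member was named, and of each other list up to 3 called genes per direction, those that changed most, and genes needed to account for small counts. CCNE1, CCNE2, E2F1, E2F2, E2F4 and markers that were not called were named after their values were seen, as was POLE4. Alternatives covered the pseudocount, filter, scaling, transcript choice, variance trend, replicate block, fold minimum and each library left out.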

Additional observations from a re-analysis of the deposited data

How the results depend on the processing

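The members called lower numbered 27 to 33 under the alternatives other than the fold minimum, with 0 called higher by limma in each (0 also at an unadjusted p with the settings of the report, the only ones for which that was counted). With a log2 fold change of at least 2 they were 9, since fewer genes reach it, and the genes called over all tested genes were 281 higher and 150 lower. Without a minimum fold change 4477 were higher and 5212 lower. With a mean FPKM of at least 5, 702 were called higher and 39 members were tested, 27 of them called lower, as fewer genes were tested.

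The median log2 fold change of the members was -1.56 with a pseudocount of 0.1, which by construction weighs low values more, and -1.52 with the sum of transcripts, for which the cause was not tested. Leaving out each library in turn gave -1.55 (without polyX replicate 1) to -1.40, with the lone library assumed to vary like the other group. ORC4 went from -0.0645 (without polyX replicate 1) to 0.12 (without polyX replicate 2), and without TCP replicate 2 it was -0.0011, so its sign depends on the libraries used. The cause was not tested.

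With a mean FPKM of at least 5, CDC7, DBF4, ORC5 and POLE2 were not tested, and without a minimum fold change 11 members were added to the 31. Under the other alternatives at the same minimum, calls of single members changed for ORC5, PCNA, RFC2, POLD3 and RPA3. With the replicate block 31 members, 1285 genes higher and 1131 lower were called.

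These are 4 libraries in 2 groups, and substrate and culture time differ together, with the medium uncertain. The counting of tags without strand leaves ORC4, MCM7, DBF4, RFC4 and RPA3 uncertain. The depth limits the lowest values most, since POLE2 rested on 88 tags in 1 library.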
